A study of Mus musculus with 6 samples.

Results

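NK barcodes with little microglial RNA were described in the single-cell profiles of immune cells around human glioma xenografts. A barcode, which stands for the contents of 1 droplet, was taken as a member when it held more than 200 genes, had under 5% of its unique molecular identifiers (UMIs) on mitochondrial genes, carried a UMI of at least 2 of the NK genes Gzma, Nkg7, Ncr1, Klrb1c, Klrd1 and Prf1, and had under 1% of its UMIs on the microglial genes Cst3, C1qa, C1qb, C1qc, P2ry12 and Tmem119. Of 40411 barcodes, 39642 passed the limits on genes and mitochondrial UMIs, and 130 of these (0.328%, exact binomial 95% interval 0.274 to 0.389%) were NK barcodes. The other 39512 passing barcodes served as the comparison. The members were selected on measured values of the same cells, so every contrast with the other barcodes is a description without a test.

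The cells came from female SCID mice, which lack functional T and B lymphocytes and keep NK cells. The study's list of materials gives the SCID strain as CB17. The labels give an age of 6 to 8 weeks, while the protocol gives 8 weeks at implantation. Each of 6 mice had received 50000 cells of U87, an established human glioma line, into the brain. In the 3 mice of the IL-33 group the xenografts expressed the cytokine IL-33 and were taken at 3 weeks, and the 3 pcDNA xenografts carried the empty vector pcDNA 3.1 and were taken at 6 weeks. Time after implantation and IL-33 status therefore cannot be told apart. CD45+ cells of the tumor-bearing right hemisphere were enriched on Percoll, sorted by flow cytometry and profiled on 10x Chromium 3′ v2 chips. The 6 libraries lie in 1 matrix whose barcodes end in a suffix from 1 to 6 that no label ties to a mouse, and groups were taken from the labels alone, so IL-33 and pcDNA were not compared and suffixes are given as libraries without a group. The cell numbers that the study lists for each library match those of the suffixes, but this match was not used.

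NK cells are innate lymphocytes that kill stressed, infected or transformed cells by releasing perforin and granzymes, and that recruit other immune cells with chemokines. Whether an NK cell fires depends on the balance of activating and inhibitory receptors on its surface, many of them encoded side by side in 1 gene complex. In the brain they are rare next to microglia, the resident macrophages, and in tumors they are known as an antitumor arm that can be held in check.

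The libraries contributed unequally. NK barcodes numbered 6 of 7771 passing barcodes in suffix 1, 12 of 10117 in suffix 2, 2 of 2834 in suffix 3, 43 of 6238 in suffix 4, 6 of 6579 in suffix 5 and 61 of 6103 in suffix 6. The share was 0.689% (exact binomial 95% interval 0.499 to 0.927%) in suffix 4 and 1.00% (0.765 to 1.28%) in suffix 6, against 0.0706 to 0.119% in the other libraries. Suffixes 4 and 6 thus held most members, and only these reached the 20 members set as the minimum for a per-library value. The NK barcodes together held 254819 UMIs, with a lowest, median and highest of 534, 1766 and 5992 UMIs per barcode, while the other barcodes had a median of 2477.

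Libraries in this matrix shared cell barcodes. A sequence found in a second library occurred in 14722 of the 40411 barcodes (36.4%), with 509 to 3428 shared sequences in each of the 15 pairs of libraries. In 300 shared sequences drawn for each pair, the profiles of the same sequence in both libraries had a mean cosine of 0.893 to 0.927, compared with 0.683 to 0.749 between different sequences. The NK barcodes were little touched: 4 of 130 (3.08%) had a sequence found in another library, no pair of members shared one, and none of the 4 partners carried 2 or more NK genes. Without shared sequences, 126 NK barcodes remained, at 0.502% of the passing barcodes. The shares by library given above count all passing barcodes, those with shared sequences included.

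A set of 6 members held genes that go against the label, and is called below the barcodes that went against the label. There were 3 barcodes, in suffixes 1, 2 and 4, that held UMIs of all of Cd3d, Cd3e and Cd3g, the chains of the T cell receptor complex. They had no UMI of Gzma, Ncr1, Klrb1c or Prf1, were selected on Nkg7 and Klrd1, and carried UMIs of Cd8b1, Trac and Trbc2. The other 3, of which 2 were in suffix 4 and 1 in suffix 6, held no Gzma UMI. They held at least 3 of the antigen presentation genes Cd74, H2-Aa, H2-Ab1 and H2-Eb1. NK genes of the rule were present beside these, with 17 Ncr1, 6 Klrd1 and 4 Nkg7 UMIs in a barcode of suffix 4. Levels without these 6 barcodes were recomputed for a chosen set of genes and not for all named genes. Where such a value moved by more than 1.5 times, or a comparison by Gzma rests on them, it is given too.

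The genes of the rule set the scale. Gzma, the tryptase of cytotoxic granules, stood at 9144 CPM (counts per 1000000 UMIs, 3′ tags without a length term, exact Poisson 95% interval 8776 to 9523) in NK barcodes and 37.4 CPM elsewhere. By library it read 8117 CPM in suffix 1, 19624 in suffix 2, 12479 in suffix 3, 8608 in suffix 4, 9323 in suffix 5 and 8225 in suffix 6. Suffix 2 was the high library, and in the other barcodes the range was 6.42 to 96.2 CPM, a gap that the selection on Gzma itself helps to set. Nkg7, a granule membrane protein, had a UMI in 129 of 130 members, Ncr1, the activating receptor NKp46, in 118, Klrd1, the CD94 chain, in 115, Gzma in 97, Prf1, the pore-forming perforin, in 72 and Klrb1c, the NK1.1 antigen, in 67. Members carried 2, 3, 4, 5 and 6 of the NK genes in 10, 13, 28, 47 and 32 cases.

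Among all 379 barcodes with at least 2 NK genes, the share of microglial UMIs ran on across the limit of 1%, with few barcodes near it. The 130 members had a median of 0.194% and a highest value of 0.929%, and the first barcode outside stood at 1.04%. Only 7 barcodes lay from 1 to 2%, whereas 162 of the 249 left out lay between 5 and 10%. The barcodes left out had a median of 7097 UMIs, and 135 of them (54.2%) held more than 2500 genes, above which the study's methods took a cell for a doublet and left it out, and which no member exceeded. The part of doublets and of free RNA in these barcodes was not tested.

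**Figure D1:**
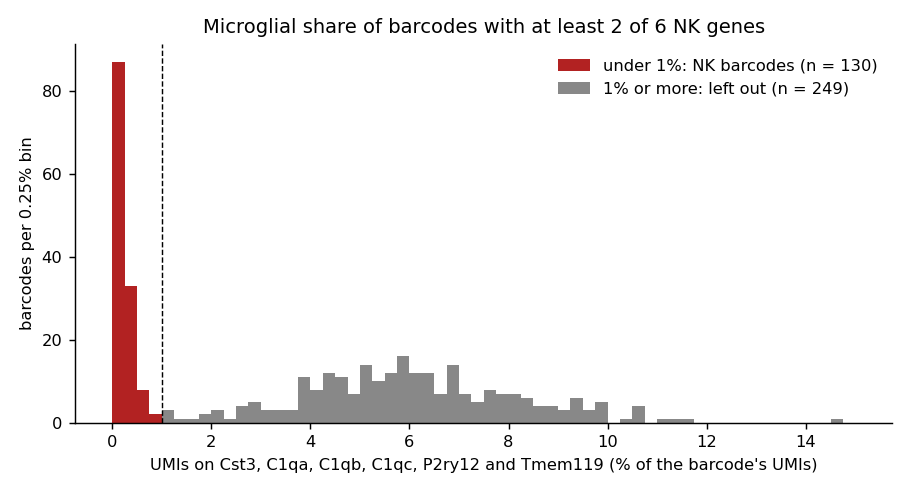
Histogram of the microglial share, as percent of the UMIs of a barcode, for the 379 barcodes with at least 2 of 6 NK genes, in bins of 0.25%. The 130 NK barcodes, with a highest value of 0.929%, lie near 0 by the rule, few barcodes lie around the limit of 1%, and the 249 left out had a median of 5.93%.

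Over all genes, those of the rule included, a gene was called higher or lower when it reached 50 CPM in either population and differed at least 4-fold in the pooled sums and in both suffix 4 and suffix 6. The 3864 genes that reached this level are called tested, without a statistical test. Of these, 326 were higher in NK barcodes (8.44%) and 467 were lower (12.1%). The median log2 ratio over all genes tested was 0.47, against which the list medians stand. The most abundant higher genes were, in order, Ccl5, Gzma, AW112010, Tmsb10, Pfn1, Nkg7, Cd52, Lgals1, Ms4a4b, Ncr1, Myl6 and Rac2, apart from the ribosomal gene Rpl38. Beside the granule genes this set holds actin regulators and cytoskeletal proteins (Tmsb10, Pfn1, Myl6), Rac2, a GTPase of hematopoietic cells, the lymphocyte surface proteins Cd52 and Ms4a4b, and the galectin Lgals1.

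**Figure D2:**
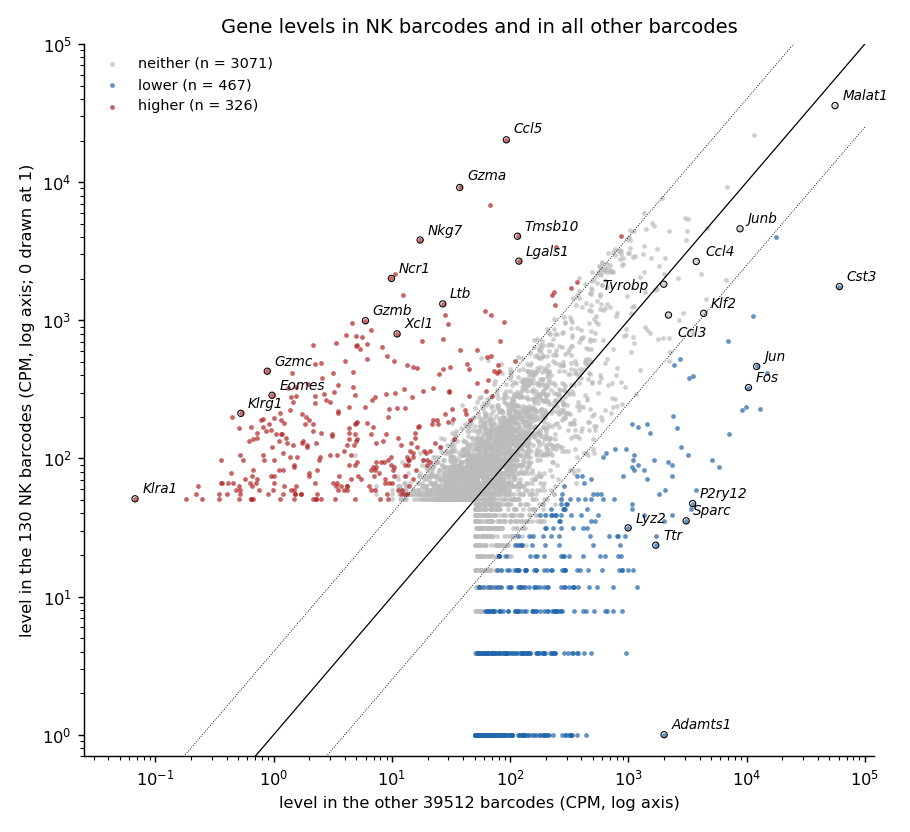
Levels of 3864 genes in NK barcodes against all other barcodes, in CPM on log axes, with the line of equality (solid) and 4-fold lines (dotted). The 326 higher genes (red) reach from Klra1 to Ccl5 and the 467 lower genes (blue) include Fos and Cst3, while Tyrobp, Ccl4 and Junb lie between the 4-fold lines.

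Cytotoxic granule genes outside the rule were high. Of 14 listed genes, 12 were tested, 9 were higher, 2 were lower and the median log2 ratio was 6.95. Gzmb, the granzyme that cleaves after aspartate, measured 993 CPM (874 to 1123) in NK barcodes and 5.97 CPM (5.51 to 6.46) in the others, a ratio of 166 (143 to 193), or 7.38 on the log2 scale (8.34 without suffix 6). Its level was 849 CPM in suffix 1, 1673 in suffix 2, 0 in the 2 members of suffix 3, 814 in suffix 4, 1378 in suffix 5 and 1018 in suffix 6. Apart from suffix 3, where 0 of 3606 UMIs allows up to 832 CPM, each library was far above the highest value of its other barcodes, 19.5 CPM. Ctsw, the lymphocyte cathepsin W, reached 761 CPM against 5.54, and Ctla2a, a cathepsin inhibitor, 679 CPM against 6.12. The serpins Serpinb9 and Serpinb6b, of which Serpinb9 inhibits granzyme B within the cell, were at 263 and 283 CPM, and Fasl, the death ligand, was at 177 CPM. The lower members were Ctsc, the protease that activates granzymes, at 118 CPM against 952, and Lamp1, a lysosomal membrane protein, at 177 CPM against 1064; Srgn, the granule proteoglycan, was at 753 CPM against 331 and was not called.

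A Gzmb UMI was found in 65 of 130 NK barcodes (50.0%, 41.1 to 58.9%) and in 0.0260% of the barcodes with none of the 6 NK genes. After thinning each barcode to 1000 UMIs, which left out 13 NK barcodes, the shares were 39.3% and 0.0136%. Gzmc, a further granzyme of the same cluster, was of another kind, with 109 UMIs in 12 barcodes, 37 of them in a single barcode. Its level was 1010 CPM in suffix 4, 973 in suffix 5, 146 in suffix 6 and 0 in the other libraries.

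NK receptor genes had a higher median than the other lists with more than 1 gene tested, apart from the genes of the rule. Of 22 genes in the matrix, 17 were tested, 16 were higher and 1 was lower, with a median log2 ratio of 7.49. Klrk1, the activating receptor NKG2D, measured 773 CPM against 4.93, and Klrc1, the inhibitory NKG2A chain, 483 CPM against 2.22. In the other barcodes Klrc1 was at 8.00 CPM in suffix 6, 3.14 in suffix 4 and at most 0.619 in the remaining libraries. Klrc2, the activating relative of Klrc1, measured 255 CPM against 1.47, and Klre1 330 CPM against 1.56. The Ly49 genes Klra3 and Klra7, receptors for class I molecules, were at 663 and 161 CPM, and Klra1, Klra4 and Klra9 at 51.0, 51.0 and 62.8 CPM. At least 1 UMI of a Klra gene was found in 71 barcodes. Klra1 stood at 157 CPM in suffix 4 and 7.32 CPM, a single UMI, in suffix 6, and Klra4 at 118 and 7.32 CPM. Ly49 genes are near-identical copies, so the split of reads among them is uncertain, and Klra8 and Tigit were at 0, where 0 of 254819 UMIs allows up to 11.8 CPM. The lower receptor was Fcgr3, the CD16 chain that binds antibody, at 82.4 CPM in NK barcodes and 1345 CPM in the others, where microglia also express it. Cd226, an activating receptor, and Cd96, its inhibitory counterpart, were at 70.6 and 62.8 CPM.

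The signalling chain behind these receptors was mostly higher. Of 15 tested adaptors and kinases, 10 were higher and none was lower, with a median log2 ratio of 5.40. Hcst, the adaptor DAP10 that pairs with NKG2D, measured 706 CPM against 18.1, the kinases Lck and Txk 648 and 624 CPM against 4.93 and 5.39, Zap70 188 CPM against 1.15 and Cd247, the zeta chain, 137 CPM against 0.672. Sh2d1a, the adaptor SAP, was at 188 CPM against 0.787. Tyrobp, the adaptor DAP12 used by NK cells and microglia alike, was at 1825 CPM (1663 to 1998) against 1993, and Fcer1g at 1644 CPM against 1691. Neither was called, and the Tyrobp ratio of 0.916 had an interval of 0.834 to 1.00.

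Transcription factors of the NK program were mostly higher: 10 of 14 tested, none lower, with a median log2 ratio of 6.23. Eomes, a T-box factor of NK maturation, measured 286 CPM (225 to 360) against 0.970 and had a UMI in 51 of 130 members. In the other barcodes Eomes was at 3.02 CPM in suffix 6, 1.43 in suffix 4 and at most 0.482 in the remaining libraries. Tbx21, the related T-bet, was at 54.9 CPM in 14 members. Ets1 was at 341 CPM, Stat4 at 153, Runx3 at 145, Gata3 at 133 and Ikzf2 at 126 CPM. The other 4 were not called. Id2 stood at 1593 CPM against 1387, Irf8 at 1071 against 781, Zeb2 at 161 against 307, and Klf2 at 1122 against 4330.

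Chemokines and cytokines carried the most abundant called transcript. Ccl5, which attracts T cells and monocytes, measured 20246 CPM (19697 to 20806) against 92.9, with 9816 CPM in suffix 1, 26895 in suffix 2, 14975 in suffix 3, 21428 in suffix 4, 9404 in suffix 5 and 20757 in suffix 6. All libraries were thus at least 9404 CPM, whereas their other barcodes reached at most 227 CPM. Of 8 tested genes of this list, 5 were higher and 1 was lower, with a median log2 ratio of 4.91. Xcl1, which attracts cross-presenting dendritic cells, was at 797 CPM against 11.1, in 44 members, and was 643 CPM in suffix 4, 1062 in suffix 6 and 0 in suffixes 2 and 3. Ltb, a membrane-bound lymphotoxin, measured 1315 CPM against 26.9, Ifng, the main activator of macrophages, 196 CPM against 0.998, in 35 members, and Flt3l 62.8 CPM against 3.40. Ccl3 and Ccl4, made by NK cells and by activated microglia, were at 1091 and 2665 CPM, compared with 2182 and 3752 CPM elsewhere, and neither was called. Tnf was lower, at 11.8 CPM from 3 UMIs against 288 CPM, a ratio of 0.0409 (0.00843 to 0.119), and Il10 and Il2 were at 0.

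Receptor chains for interleukin-15 and interleukin-18 were higher. Il2rb and Il2rg, the chains that transmit interleukin-2 and interleukin-15, stood at 950 and 318 CPM against 4.61 and 12.5, and Il18r1 and Il18rap, the chains of the interleukin-18 receptor, at 208 and 200 CPM against 1.75 and 1.88. These were the 4 higher genes of 9 tested, and Ifngr2 and Tgfbr1 were lower; the list median was a log2 ratio of 1.02. Il1rl1, the receptor for the cytokine IL-33 that was expressed in the xenografts of 1 group, had 0 UMIs in NK barcodes, which allows up to 11.8 CPM, and 2.08 CPM in the others, and Il15ra was also at 0.

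Trafficking receptors and integrins had 8 higher and 1 lower among 14 tested, with a median log2 ratio of 4.04. Ccr2, the receptor for CCL2, measured 479 CPM against 42.8, Cxcr6 220 CPM (126 without the 6 barcodes that went against the label) against 3.49, the integrin chain Itgb7 228 CPM against 9.46, and S1pr5, which guides NK cells out of tissues, 106 CPM against 0.518. Selplg, Itgb2 and Itgb1 were abundant in both populations and were not called. Cx3cr1, carried by microglia and by mature NK cells, was lower, at 27.5 CPM against 1702.

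Markers of both ends of NK maturation were present. Of the immature list 5 of 6 tested genes were higher, and of the mature list 4 of 7 were higher and 1 was lower, with median log2 ratios of 6.00 and 4.79. The most abundant immature genes were Ltb, Cd7 at 522 CPM, Emb at 455 and Thy1 at 267 CPM. On the mature side Ly6c2 stood at 451 CPM, Cma1, a chymase gene beside the granzymes, at 279 and Klrg1, an inhibitory receptor of mature cells, at 212 CPM. A UMI of Cd27, a marker of less mature cells, was found in 24 members without Itgam, one of Itgam, or CD11b, in 17 without Cd27, and UMIs of both in 2, with neither in 87.

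Most immediate early genes were lower in NK barcodes, and no cell cycle gene was called. Of 5 tested checkpoint genes, Cd96 and Klrc1 were higher and Lag3 and Havcr2 were lower (median log2 ratio -1.89), with Havcr2 at 0 in NK barcodes and Pdcd1, the PD-1 receptor, at 2 UMIs. None of 4 tested cell cycle genes was called (median 1.38), and Mki67 was at 0. Of 11 tested immediate early and heat shock genes, 6 were lower and none was higher (median -2.85). Fos measured 326 CPM against 10364, Jun 463 against 12164 and Egr1 90.3 against 2324, while Junb was at 4595 CPM against 8799 and was not called. The list summed to 8229 CPM in NK barcodes, 44524 CPM in all others and 8331 CPM in the others with under 1% microglial UMIs and none of the 6 NK genes. None of 6 tested type I interferon response genes was higher and Ifitm3 was lower (median 0.67).

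**Figure D3:**
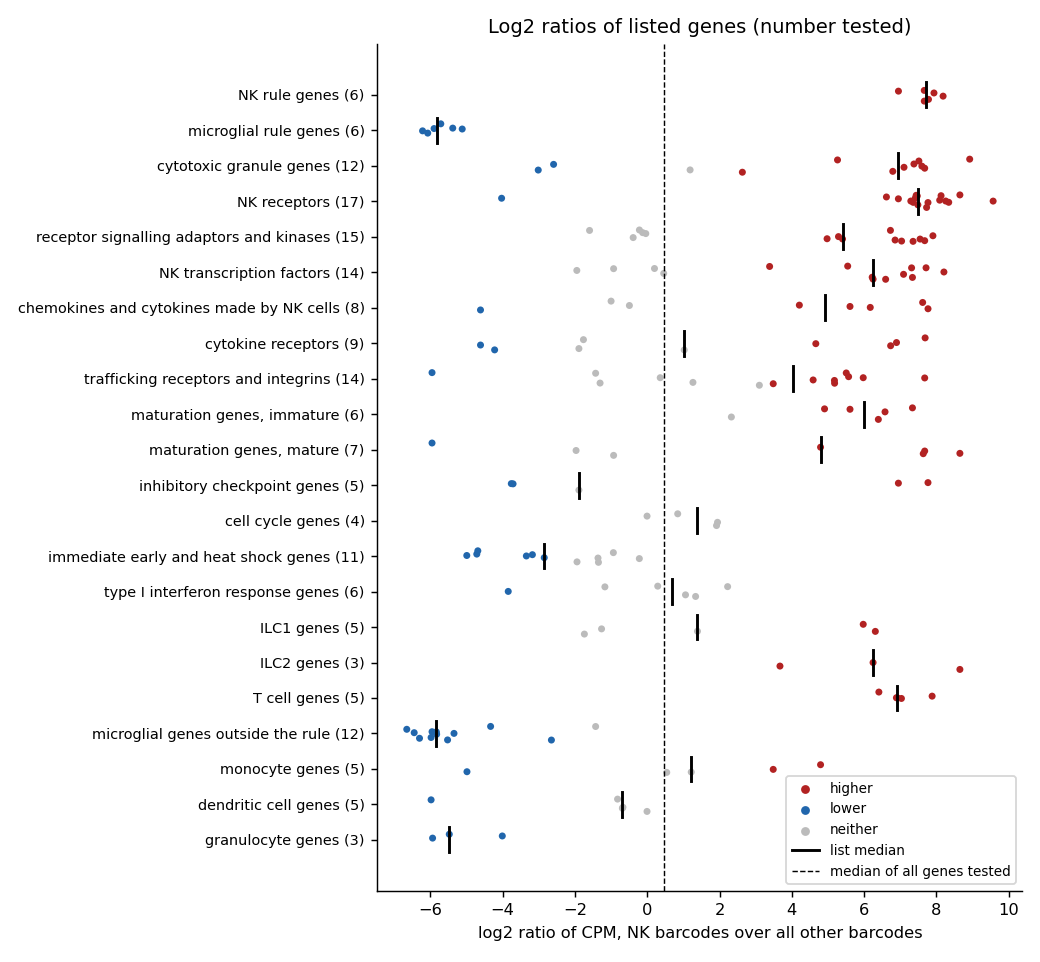
Log2 ratio of CPM, NK barcodes over all other barcodes, for the tested members of each gene list with at least 3 of them, coloured by call, with the list median (bar) and the median of all genes tested (dashed line, 0.47). NK receptors, granule genes and transcription factors lie mostly above 5, and microglial genes outside the rule mostly below -5.

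Genes of other cell types were read for the whole of each list. Of the 12 microglial genes outside the rule, 11 were lower, with a median log2 ratio of -5.83 and a summed level of 1695 CPM against 38853 CPM. Csf1r, the receptor for colony stimulating factor 1, stood at 43.2 CPM against 3401, or 1.27%, and Sall1 at 0; Selplg, which NK cells also express, was at 37.2% and was not called. The 6 microglial genes of the rule kept 1.35 to 2.88% of their level elsewhere. Lyz2, a monocyte gene, was lower at 31.4 CPM, and Ly6c2 and Ccr2, which NK cells also express, were higher, with F13a1 and Chil3 at 0. The monocyte list had 5 genes tested (median 1.22) and summed to 1154 CPM against 1183. Granulocyte genes summed to 11.8 CPM against 573, with 3 of 3 tested lower (median -5.48) and Camp, Ltf, Retnlg, Mmp8, Mmp9, Lcn2 and Ly6g at 0. Choroid plexus genes summed to 23.5 CPM against 1810, all from 6 UMIs of Ttr, with Ttr and Enpp2 lower (median -4.46), and hemoglobin genes and Alas2 were at 0. Neural and vascular genes summed to 90.3 CPM, from Pecam1 and Mbp, with 1 gene tested, not called, at a log2 ratio of 2.90. Among mast cell and basophil genes Kit alone was found, with 4 UMIs.

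Other lymphoid cells were read from their own lists. Of the ILC2 genes, Il1rl1, Areg, Il5, Il13 and Il17rb were at 0, and Gata3, Rora and Klrg1, which NK cells can express, were higher (median 6.25). Of the ILC3 genes, Il22, Il23r, Il17a and Il17f were at 0, Cd4 had 1 UMI, and Ncr1, a gene of the rule, was higher (7.66). Of the ILC1 genes, Cxcr6 and Itga1 were higher among 5 tested (median 1.39), and Tmem176a and Tmem176b were at 204 and 212 CPM against 490 and 707 CPM and were not called. Among B cell genes Cd79a, Ms4a1, Pax5 and Igkc were at 0, and Ighm, whose unrearranged locus can be transcribed in other cells, was at 212 CPM against 301 (log2 ratio -0.50).

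All 5 tested T cell genes were higher: Trbc1, Trbc2, Trdc, Cd28 and Cd3g, with a median log2 ratio of 6.92. Trbc1, the constant region of the T cell receptor beta chain, measured 659 CPM with UMIs in 76 barcodes, and Trdc, that of the delta chain, 192 CPM in 37 barcodes. Cd3g was at 133 CPM, and Cd3d and Cd3e at 39.2 and 19.6 CPM. A UMI of any of these Cd3 genes was found in 12 barcodes, and Cd5 and Cd6 were at 0. Without the 6 barcodes that went against the label, Trbc1 stood at 673 CPM and Trdc at 202, Cd3g fell to 88.3 and Cd3d to 8.41 CPM, and Cd3e, Cd8a and Cd8b1 had no UMI left. Dendritic cell genes, with 5 tested and only Siglech lower (median -0.69), behaved likewise: Cd74 dropped from 70 to 6 UMIs, or from 275 to 25.2 CPM, and Cd209a, Flt3, Xcr1 and Clec9a were at 0. The count of higher genes was 324 and of lower genes 460 without these barcodes.

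Ribosomal proteins took 18.2% of the UMIs of NK barcodes and 5.29% of those of the others. The share was 13.2 to 21.6% across the 6 libraries in NK barcodes and 4.11 to 6.39% in the others, without overlap. Of 81 ribosomal protein genes tested, 80 had a ratio above 1, and 1, Rpl38, passed 4-fold. Their median log2 ratio was 1.85, beside 0.47 over all genes tested, most of which therefore also had a ratio above 1. In other passing barcodes with under 1% microglial UMIs the share was 13.4%.

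Those barcodes, 558 without any of the 6 NK genes, were the nearest comparison by microglial content. They held choroid plexus, monocyte, granulocyte and dendritic cell RNA, with list sums of 85134, 20982, 11725 and 11291 CPM. Against them 179 genes were higher in NK barcodes and 345 were lower, and 152 of the 179 (84.9%) were among the 326 higher genes. These were 46.6% of the 326, and 152 of the 467 lower genes (32.5%) were lower in this comparison too. Ccl5 was at 74.3 CPM, Gzmb at 4.37, Klrg1 at 1.09 and Eomes at 0 CPM in these barcodes, far under the NK levels above. Most calls did not carry over. Among the most abundant higher genes the ratio was 2.55 for Tmsb10, 1.71 for Pfn1, 2.38 for Cd52, 1.70 for Lgals1, 1.34 for Myl6 and 2.64 for Rac2, all under 4, while it was 58.0 for AW112010 and 91.6 for Ms4a4b. Emb was at 455 CPM in NK barcodes and 468 in these, Ly6c2 at 451 and 567, and Ccr2 at 479 and 1382. Of the residual microglial genes, P2ry12 was at 47.1 and 46.4 CPM, C1qa at 235 and 141, Cst3 at 1754 and 3914 and Ctss at 224 and 1909. Klf2 and Ccl4, which were below the level of all other barcodes, were above that of these, with ratios of 4.36 and 3.34.

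The 249 barcodes with NK genes and 1% or more microglial UMIs held most of the UMIs of the rule's NK genes found outside the members, as their selection on these genes makes likely. They carried 3840 of the 3901 Gzma UMIs of the other barcodes (98.4%), 97.3% of those of Ncr1, and 51.8% of those of Klrd1. Of genes the rule did not use, they carried 88.6% of the UMIs of Gzmb, 67.4% of those of Ccl5 and 32.7% of those of Ltb. Per barcode their Gzma content was near that of the members, 15.4 against 17.9 UMIs, as was that of Ncr1, 4.03 against 3.94, and that of Gzmb, 2.21 against 1.95. As a share of UMIs, Gzma was at 1903 CPM, or 20.8% of its level in NK barcodes. Xcl1 differed, with 4.43 UMIs per barcode against 1.56, as did Klrg1 in the other direction, with 0.165 against 0.415. By suffix the 249 barcodes numbered 8, 21, 4, 78, 12 and 126, again most in suffixes 4 and 6.

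NK barcodes differed among themselves along a gradient from Gzma to Ltb. The 97 barcodes with a Gzma UMI had a median of 1581 UMIs, and the 33 without one a median of 2438, so missing Gzma did not go with lower depth. Gzma, Prf1 and Ncr1 are genes of the rule, and a member without Gzma had to carry at least 2 of the other 5, so their values in this comparison are set in part by the selection. Barcodes with Gzma had more Prf1, at 1055 CPM (903 to 1226) against 43.1 (11.7 to 110), more Klra3, at 1012 against 53.9, more Klrg1, at 327 against 10.8, and more Ccl4, at 3925 against 463 CPM. Ccl5 was at 28182 CPM in them and 6390 in the rest, Gzmb at 1370 and 334, and Klf2 at 1568 and 345. Cma1 and Serpinb9b had 71 and 51 UMIs with Gzma and 0 without, where 0 of 92801 UMIs allows up to 32.3 CPM. The intervals of Ncr1 overlapped, at 2080 CPM (1864 to 2314) against 1886 (1617 to 2187).

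Barcodes without a Gzma UMI had more Ltb, at 2575 CPM against 593, more Xcl1, at 1347 against 481, and more Emb, at 830 against 241. They also had more Cxcr6, the receptor for CXCL16, at 560 CPM against 24.7, Tmem176b at 485 against 55.5, the serpin Serpina3g at 948 against 259 and Gzmc at 1013 against 92.6. The value of Gzmc with Gzma came from 15 UMIs of a single barcode, and its direction was that of suffix 4, at 2120 CPM without and 0 with Gzma, and turned in suffix 6, at 106 without and 167 with it. Of the 12 barcodes with a Gzmc UMI, 11 had no Gzma UMI, 10 had a Tmem176b UMI and 10 an Xcl1 UMI. Each of the 8 listed ILC1 genes was at a higher level without Gzma, among them Tmem176a at 485 CPM against 43.2. Some of these levels came from few UMIs, and whether the barcodes without Gzma include ILC1 was not tested. Over the 130 barcodes, on log2(UMIs per 1000 UMIs + 1), Gzma and Ltb had a Spearman coefficient of -0.62 and a Pearson coefficient of -0.62, which were -0.51 and -0.49 in suffix 4 and -0.71 and -0.76 in suffix 6. Gzma and Prf1, both of the rule, had a Spearman coefficient of 0.60 and Ltb and Xcl1 of 0.57. Without the 6 barcodes that went against the label (n = 124) the Spearman coefficients were -0.59 for Gzma and Ltb, 0.57 for Gzma and Prf1 and 0.58 for Ltb and Xcl1. The total UMIs of a barcode had a coefficient of -0.50 with Gzma and 0.51 with Ltb, and the part of depth in these relations was not tested.

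**Figure D4:**
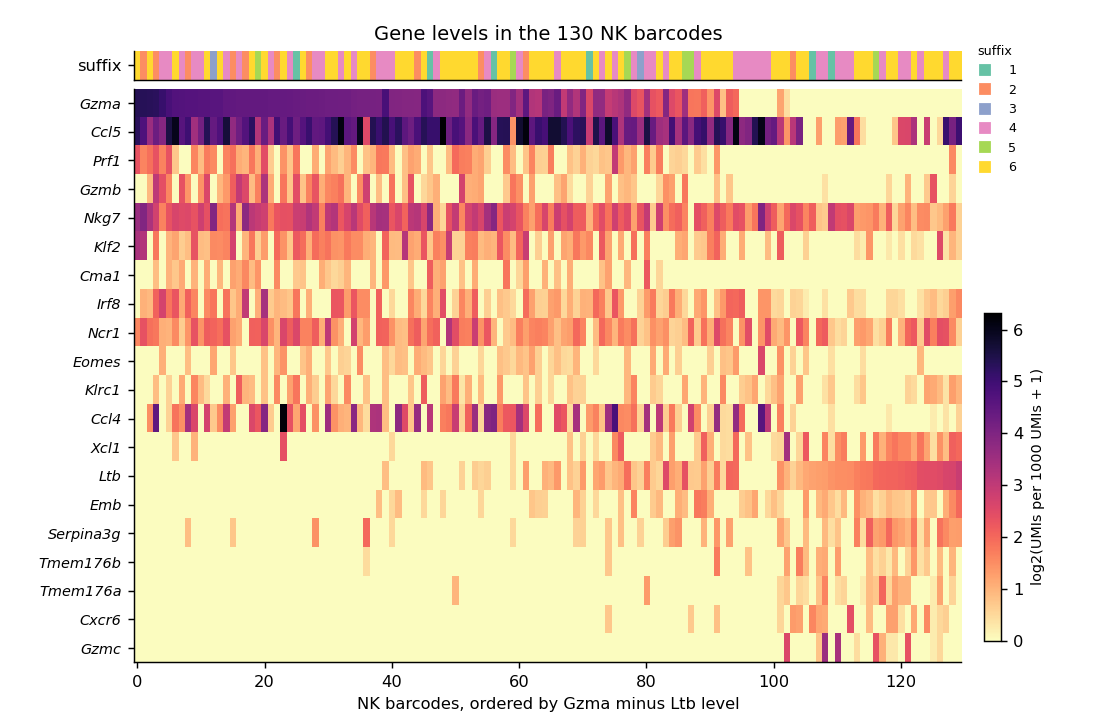
Levels of 20 genes, as log2(UMIs per 1000 UMIs + 1), in the 130 NK barcodes ordered by Gzma minus Ltb, with the suffix of each barcode above. The order itself places Gzma left and Ltb right. Prf1, Cma1 and Klf2 lie mostly on the left, Emb, Cxcr6 and Gzmc mostly on the right, and suffixes 4 and 6 occur along the whole order.

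Both groups occurred in most libraries, with 28 barcodes with and 15 without Gzma in suffix 4 and 47 and 14 in suffix 6. Without the 6 barcodes that went against the label, 27 remained without Gzma, at a median of 2503 UMIs. Ltb was then at 2705 CPM against 593, Xcl1 at 1478 against 481, Emb at 897 against 241, Gzmc at 1148 against 92.6, Tmem176b at 449 against 55.5 and Serpina3g at 1029 against 259 CPM. Cxcr6 dropped from 560 to 343 CPM, still against 24.7. Itga1, an integrin used to mark ILC1, was at 79.2 CPM without Gzma and 37.0 with it, and Eomes at 172 and 364, from 6 and 6 UMIs for Itga1 (in suffix 4 its direction turned, at 0 without and 50.1 with Gzma over all members) and 13 and 59 for Eomes.

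**Figure D5:**
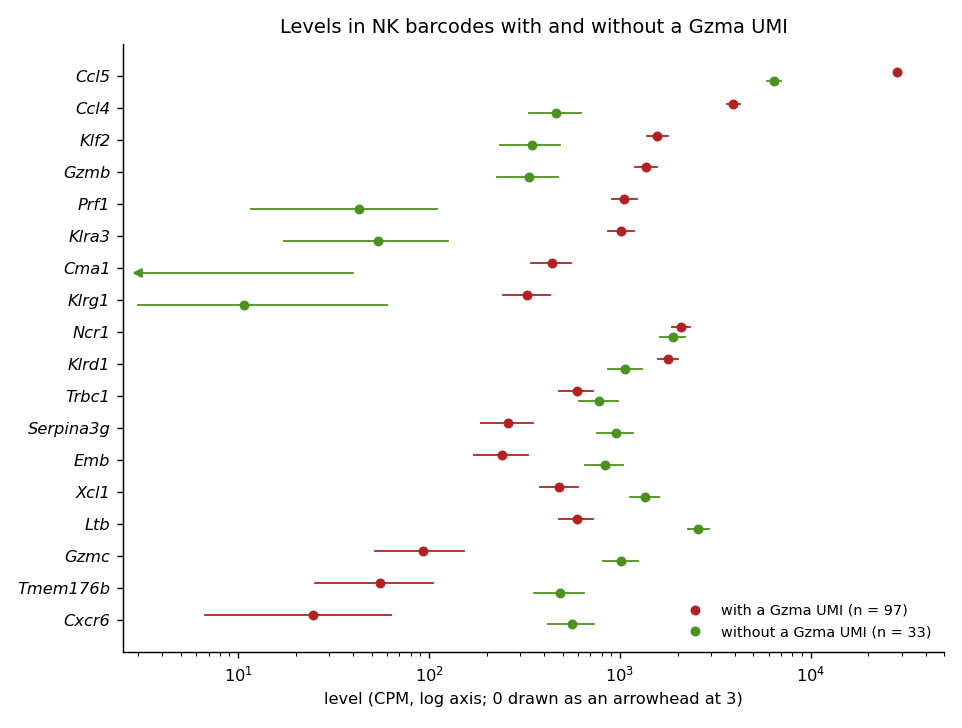
Levels of 18 genes chosen after their values were seen, in CPM on a log axis with Poisson 95% intervals, in NK barcodes with a Gzma UMI (red, n = 97) and without one (green, n = 33). Ccl5, Prf1, Klra3 and Klrg1 are higher in the first group, Ltb, Xcl1, Cxcr6 and, by suffix 4 and not suffix 6, Gzmc in the second, and the intervals of Ncr1 overlap.

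Suffixes 4 and 6 gave like profiles. Of 803 genes with at least 40 NK UMIs in both together, 13 differed by more than 2-fold between them and 1 by more than 4-fold. That gene was Gzmc, with 77 UMIs in suffix 4 and 20 in suffix 6. The others included Ly6c2, at 695 CPM in suffix 4 and 330 in suffix 6. Its direction turned among members with a Gzma UMI, at 276 and 435 CPM. Without a Gzma UMI it was at 1156 and 128 CPM, and a single barcode held 24 of its 115 UMIs. These Ly6c2 levels were not recomputed without the 6 barcodes that went against the label. Also past 2-fold were Gna13, Tsc22d3, Zfp36l1 and Txnip, at 78.7, 118, 91.9 and 105 CPM in suffix 4 and 315, 330, 256 and 278 in suffix 6. C1qa, a microglial gene of the rule, was at 118 CPM in suffix 4 and 278 in suffix 6, and Apoe at 249 and 542. These libraries were not assigned to a group, as above.

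Positions are given for 6 windows of related genes (mouse GRCm38, GENCODE M21), chosen after their values were seen. The NK gene complex and the Gzma window hold genes of the rule. In the NK gene complex, chr6:128609227-131247362, which holds the Klr receptor genes from Klrb1a to the Ly49 genes, 18 genes were tested and 17 were higher, among them Cd69 and Clec2d. All 8 tested Gimap genes, GTPases of lymphocyte survival, were higher at chr6:48647234-48770851. In all, 41 of 225 tested genes on chromosome 6 were higher (18.2%), beside 8.44% over the genome. Gzmb, Gzmc and Cma1 were the tested genes of the granzyme cluster at chr14:55941451-56262260 and all 3 were higher, as were Gzma and Gzmk at chr13:113093825-113225908 and 3 of 3 tested Serpinb genes at chr13:32965209-34002794. Among the 5 chemokine genes tested at chr11:83525778-83664683, Ccl5 was higher, Ccl6 and Ccl9 were lower, and Ccl3 and Ccl4 were neither.

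The bases next to the start of 4 granule and receptor genes are shown because T-box and RUNX factors, here Eomes, Tbx21 and Runx3, were among the higher genes. They are the 250 bases before the transcription start from RefSeq (GRCm38.p6), 5′ to 3′ on the strand of the gene, with capitals marking the T-box core TCACAC or the RUNX core TGTGGT on either strand. Gzma lies on the minus strand (chr13:113100982-113101231), Gzmb on the minus strand (chr14:56262335-56262584), Ncr1 on the plus strand (chr7:4337465-4337714) and Nkg7 on the plus strand (chr7:43436888-43437137).
Gzma: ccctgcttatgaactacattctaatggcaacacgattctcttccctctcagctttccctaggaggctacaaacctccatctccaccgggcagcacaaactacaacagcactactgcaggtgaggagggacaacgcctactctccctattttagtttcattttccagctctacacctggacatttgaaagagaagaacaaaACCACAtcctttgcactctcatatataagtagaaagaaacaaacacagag
Gzmb: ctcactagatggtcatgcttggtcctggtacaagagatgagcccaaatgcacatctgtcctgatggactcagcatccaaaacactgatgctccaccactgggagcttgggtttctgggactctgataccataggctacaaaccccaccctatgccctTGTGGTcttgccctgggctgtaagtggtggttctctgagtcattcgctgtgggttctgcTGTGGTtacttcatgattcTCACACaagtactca
Ncr1: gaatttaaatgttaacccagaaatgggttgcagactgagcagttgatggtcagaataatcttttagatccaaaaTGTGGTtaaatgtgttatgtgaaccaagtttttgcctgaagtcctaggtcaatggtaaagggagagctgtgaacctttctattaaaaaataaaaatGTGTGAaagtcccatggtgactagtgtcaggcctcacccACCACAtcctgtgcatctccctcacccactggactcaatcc
Nkg7: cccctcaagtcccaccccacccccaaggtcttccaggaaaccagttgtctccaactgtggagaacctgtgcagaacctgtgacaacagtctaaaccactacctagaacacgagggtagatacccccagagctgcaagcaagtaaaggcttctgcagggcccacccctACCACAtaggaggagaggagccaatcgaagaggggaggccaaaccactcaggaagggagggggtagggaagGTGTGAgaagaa

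Of these, Gzma held 1 RUNX core and no T-box core, Gzmb and Ncr1 1 T-box and 2 RUNX cores each, and Nkg7 1 of each. Among the higher genes other than Rpl38, 236 of 325 matched a promoter by symbol, and 33 of them (13.98%) held the T-box core and 54 (22.9%) the RUNX core in the same window. The shares were 12.2% and 14.2% over all 27025 promoters of the table, and 9.11% and 11.7% over the 3062 promoters of genes tested. A match of letters is a description of the sequence and not a bound site.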

How the data were processed

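CD45+ cells of 6 xenograft-bearing mice were profiled by 10x Chromium 3′ v2 sequencing in 3 batches. The authors aligned reads to mm10 with Cell Ranger 3.1.0 and joined the libraries; the deposited matrix holds raw UMI counts per gene and barcode (31053 genes, 40411 barcodes, 105560763 UMIs), in whole numbers, before their filters. The submitters' processing notes also name Seurat 3.1.5. By suffix 1 to 6 the totals were 19485849, 24393841, 9745192, 17862783, 14701656 and 19371442 UMIs.

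The quality limits removed 769 barcodes (10 with at most 200 genes, 762 with 5% or more mitochondrial UMIs). The matrix was treated as 1 pooled sample: groups were taken from the labels, none of which ties suffixes to mice, so the suffixes did not serve as replicates and no statistical test was run. UMIs were summed per population and expressed as CPM with exact Poisson 95% intervals, and shares carry exact binomial intervals. Intervals and floors (3 counts) cover counting error only. Ratios with 0 counts were set to 3 counts. No doublet caller was run; the study gated doublets by scatter in the sort and left out cells with more than 2500 genes as doublets, a limit tried here as an alternative. The summing and calling steps were tested on simulated data.

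The members, the 28 gene lists and the rules were chosen with earlier results of these data known. Genes named by rule were the 12 rule genes, the 12 of highest and 12 of lowest ratio, the 12 most abundant higher genes and, per list, the 4 most abundant members and those at 0; other names, among them further list members and those of the comparison by Gzma, of suffixes 4 and 6 and of gene positions, were chosen after their values were seen. Alternatives varied the rule, the comparison population, the call limits, thinning (1000 and 500 UMIs), and members selected on a random part of the UMIs (probability 0.5) with levels from the other part. Positions came from GENCODE M21 and promoters from RefSeq. Python 3.11.15, numpy 2.4.6, scipy 1.17.1, pandas 2.3.3 and matplotlib 3.10.9 were used. A few genes of the lists are not reported here.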

Additional observations from a re-analysis of the deposited data

How the results depend on the processing

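No paired analysis was possible between IL-33 and pcDNA, because groups were taken from the labels, none of which ties suffixes to mice. Both populations occur in each library, so NK and other barcodes could be paired by library for genes outside the rule. Such a pairing was not tested, and the results come from no test, with members chosen on measured values of the same cells. Depth limits most single genes: a gene at 0 in NK barcodes could be at up to 11.8 CPM, and members in suffixes 1, 2, 3 and 5 number 12 or fewer each. The share of NK barcodes rose from 0.328% to 0.956% without a limit on microglial UMIs and to 0.502% with only barcodes whose sequence is in 1 library, a setting added after seeing the data, and lay between 0.206% and 0.400% with each suffix left out; the lowest was without suffix 6, which left 69 members. Counts of higher genes moved from 326 to 106 without the microglial limit, 596 without a minimum CPM, 857 at a ratio of 2, and 179 against barcodes with under 1% microglial UMIs; counts of lower genes moved from 467 to 273 at a limit of 3%, to 3 without a limit and to 718 at a ratio of 2. Leaving out each suffix gave 312 to 433 higher and 412 to 473 lower genes. With members and levels from separate parts of the UMIs, 316 genes were higher, 280 of them in common with the 326, and 342 were lower, 300 of them in common with the 467.

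The log2 ratio of Gzmb was 7.38. It was 7.05 at a limit of 3%, 8.99 without a limit, 8.62 at most 2500 genes and 12.78 against barcodes with none of the 6 NK genes. With equal weight for only the suffixes that held at least 20 NK barcodes it was 6.04, and the other suffixes did not enter this value. It was 6.98 when centred on a log2 ratio of 0.399, taken from 1943 genes rather than from all genes tested. Against barcodes with under 1% microglial UMIs it was 7.83. With each suffix left out it was 7.02 to 8.34, the highest without suffix 6. The share with a Gzmb UMI was 39.3% thinned to 1000 UMIs and 29.2% thinned to 500, and 47.8% to 51.7% with each suffix left out. Against barcodes with under 1% microglial UMIs and none of the NK genes, 9 log2 ratios of called genes changed sign: C1qa became 0.74, C1qc 0.31, P2ry12 0.021, Tmem119 0.58, Ccr2 -1.53, Emb -0.040, Ly6c2 -0.33, Lag3 1.32 and Gpr34 1.49. The cause was not tested. A further 17 named genes without a call changed sign there, among them Klf2, Ccl4, Ccl3, Selplg, Junb and Srgn. Over 121 named genes and the 19 settings that gave log2 ratios, 1706 log2 ratios lay within the counting interval, 584 moved beyond it, 555 of them with the same sign, and these 9 reversed. Genes without a call changed sign in 55 cases.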
